A study of Mus musculus with 24 samples.

Results

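The data compared here are the 12 WT libraries, of 24 libraries in all, divided into a first day (6 libraries, 12 to 32 h after dexamethasone) and a second day (6 libraries, 36 to 56 h). The libraries were chosen by genotype and collection time alone, so that every second-day library had a partner of the first day collected exactly 24 h earlier, at the same phase of a 24 h cycle. The study asked what the loss of REV-ERBα and its paralog REV-ERBβ, both nuclear receptors, does to rhythmic transcription in mouse embryonic stem (ES) cells made to differentiate in culture, and sequenced polyA-selected RNA every 4 h. All libraries were of Per2::Luciferase knock-in cells, given 100 nM dexamethasone at differentiation day 28 and collected at the times named. Each second-day culture was thus 24 h older than its first-day partner. Time after dexamethasone and age of the culture cannot be told apart here. The medium was exchanged every other day during differentiation, and the time since the last exchange is not given for each library. The KO cells carried in addition disrupted Rev-erbα and Rev-erbβ genes and were grown from picked colonies. RNA of 3 embryoid bodies was pooled for each library, with 1 library per time point. The 6 libraries of a day are different time points and the p-values below measure the spread between the 6 pairs. The question here was what, other than the phase, differed between the first and the second day after dexamethasone.

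Dexamethasone is a synthetic glucocorticoid. It binds the glucocorticoid receptor, which enters the nucleus, activates genes such as Fkbp5, Tsc22d3 and Per1 and restrains many inflammatory genes. A single pulse aligns the circadian clocks of cultured cells. Acute phase genes such as Saa3 and Lcn2 respond to inflammatory cytokines, and several of them to glucocorticoids as well. Many interferon-induced genes are switched on through a DNA element in their promoters, the interferon-stimulated response element (ISRE).

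Levels are in RPKM, reads on a gene per length of its exons and per library total. Fragments on exons numbered 6426254 to 9092860.5 per library on the first day and 6638356 to 10287969 on the second, so the depth of the days overlapped. The label of differentiated cells was checked against markers. Matrix genes of fibroblasts were high, with Col1a1 at 748 to 966 RPKM over the 12 libraries. Macrophage C1qa lay at 83.5 to 101 RPKM, cardiac Tnnt2 at 35.3 to 55.8 RPKM and keratinocyte Krt14 at 79.5 to 176 RPKM. The pluripotency gene Nanog stayed at or under 0.704 RPKM. Of 13 pluripotency markers, however, 6 reached the level set below for testing. The 13 summed to 13.7 to 25.8 RPKM on the first day and 13.1 to 22.2 RPKM on the second. The cultures are thus a mixture. In such bulk samples fewer cells of a type and less RNA per cell cannot be told apart. Base quality of the reads was not balanced between the days: 1 of 6 first-day libraries (32 h) and 4 of 6 second-day libraries (44 to 56 h) belonged to the lower class in the study's sequencing statistics.

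Of 14944 genes with a mean above 0.5 RPM (reads on the gene scaled to the library total) over the 12 WT libraries, 52 (0.348%) passed an adjusted p of 0.05 between the days (limma on log2(RPKM + 0.1) with the 6 pairs as blocks, Benjamini-Hochberg). Of these, 38 genes (0.254%) rose on the second day and 14 (0.0937%) fell. Rises spanned 0.27 to 1.55 and falls -0.21 to -1.74 on the log2 scale, where the median of all genes tested was 0.004. All 52 moved in 1 direction in 6 of 6 pairs, as did 4.26% (higher) and 3.67% (lower) of all genes tested. In 30 of the 52 the 6 libraries of one day did not overlap with those of the other, which was so for 0.562% (higher) and 0.509% (lower) of all genes. At an unadjusted p under 0.05 there were 1847 genes (12.4%), 930 higher (6.22%) and 917 lower (6.14%). The split of the calls depended on the scaling: 73.1% of calls were rises here and 56.7% of the 90 calls made after quantile normalization. The count rested on single pairs too, and without the 28 and 52 h pair no gene passed (1398 at an unadjusted p under 0.05).

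With the class of base quality as a covariate, no gene passed the adjusted test, and 817 genes (5.47%) had an unadjusted p under 0.05. By construction this fit takes its estimate from the 3 pairs whose libraries shared a class (12 with 36 h, 16 with 40 h and 32 with 56 h). These pairs are among the 6 in which all 52 genes had moved in 1 direction, so that the sign was fixed by the choice of genes. The median ratio of their log2 difference to the one without the covariate was 1.04, from samples that chose the genes as well. The part of base quality in the calls was not tested beyond this.

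The genes that rose included acute phase and secreted defence proteins, and Saa3 was the most abundant of all genes called. Saa3, serum amyloid A3, an acute phase apolipoprotein, had 709, 621, 882, 874, 1010 and 1155 RPKM from 12 to 32 h and 1102, 1849, 1517, 1497, 1763 and 1741 RPKM from 36 to 56 h. The 36 h library lay within the range of the first day and the other 5 above it. The rise was 0.86 ± 0.13 (SE) on the log2 scale, or 1.82-fold (limma, adjusted p = 0.045, n = 6 pairs). Lcn2, lipocalin 2, which withholds iron from bacteria, spanned 48.3 to 71.3 RPKM (median 59.5) on the first day and 76.6 to 114 RPKM (median 101) on the second, with no overlap. It rose by 0.75 ± 0.07 (limma, adjusted p = 0.013). Hp, haptoglobin, which binds free haemoglobin, spanned 39.9 to 54.2 RPKM (median 47.1) and then 56.5 to 91.6 RPKM (median 81.3). It rose 1.66-fold, again without overlap. Rarres2, the chemoattractant chemerin, spanned 31.2 to 53.2 RPKM on the first day and 57.3 to 86.1 RPKM on the second and rose by 0.66 ± 0.09.

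**Figure D1:**
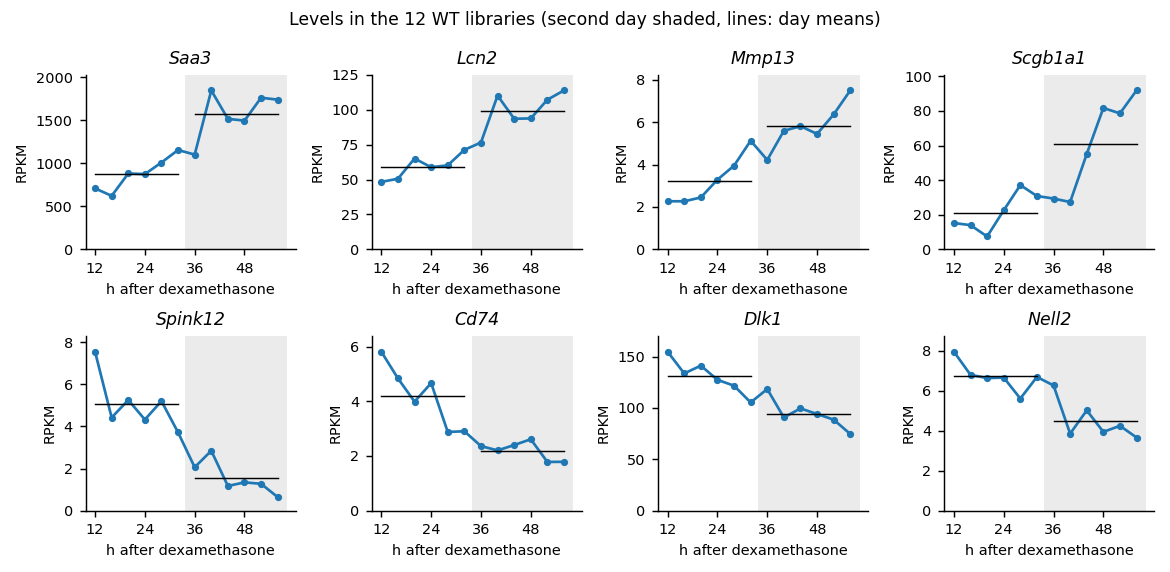
Levels of 8 genes in the 12 WT libraries: RPKM on the vertical axis from 0, hours after dexamethasone on the horizontal axis, points for single libraries, horizontal lines for the mean of each day, and shading for the second day. Saa3, Lcn2, Mmp13 and Scgb1a1 lie higher on the second day, and Spink12, Cd74, Dlk1 and Nell2 lower; Lcn2, Spink12 and Cd74 do so with no overlap.

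The largest rise was in Scgb1a1, secretoglobin 1A1, the main secreted protein of airway club cells. Its levels were 15.2, 13.9, 7.38, 22.5, 37.1 and 30.8 RPKM on the first day and 29.3, 27.3, 55.1, 81.7, 78.6 and 91.9 RPKM on the second. The libraries at 36 and 40 h overlapped with the first day and the last 4 did not. The difference was 1.55 ± 0.24 (2.93-fold; limma, adjusted p = 0.045). A list of 5 club cell genes was chosen after these values were seen and includes Scgb1a1 itself. Its summed level was 60.4 to 147 RPKM on the first day and 129 to 226 RPKM on the second. In this list 5 of 5 were higher, with none at 0, and its part in the result was not tested. Prg4, lubricin, the lubricating proteoglycan of joint surfaces, spanned 4.36 to 10.3 RPKM and then 10.9 to 18.5 RPKM and rose 2.11-fold (limma, adjusted p = 0.020). Mmp13, the collagenase matrix metalloproteinase 13, spanned 2.26 to 5.12 RPKM (median 2.87) and then 4.22 to 7.50 RPKM (median 5.70). Only its 32 and 36 h libraries overlapped, and it rose by 0.88 ± 0.10. Il13ra2, the decoy receptor for interleukin 13, rose 1.69-fold from a median of 0.824 to 1.53 RPKM.

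**Figure D2:**
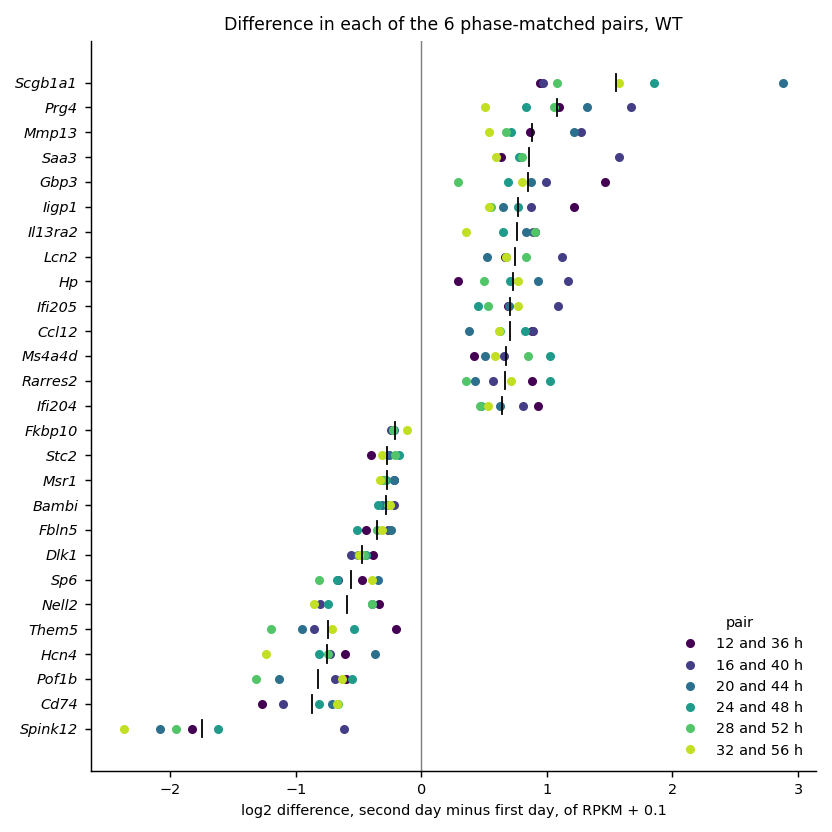
Difference between the days for 27 genes called in WT: the horizontal axis is the log2 difference of RPKM + 0.1 (second minus first day), coloured points are the 6 pairs 24 h apart, and black ticks are the mean. All points of the 14 genes shown that rose lie right of 0 and all points of the 13 shown that fell lie left of it, from Scgb1a1 (mean 1.55) to Spink12 (mean -1.74).

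Several further genes that rose are known to be induced by interferons. Iigp1, a GTPase that attacks the vacuoles of intracellular parasites, spanned 1.52 to 3.32 RPKM on the first day and 3.68 to 4.88 RPKM on the second, with no overlap. It rose by 0.77 ± 0.09 (limma, adjusted p = 0.020). Gbp3, a guanylate-binding protein of the same defence, spanned 0.914 to 1.48 RPKM and then 1.49 to 2.69 RPKM, with the 32 and 52 h libraries nearly meeting, and rose 1.80-fold. Ifi204 and Ifi205, DNA-binding proteins of the p200 family, rose by 0.64 ± 0.07 and 0.70 ± 0.10, and the libraries overlapped for Ifi205 only. Ccl12, a chemokine for monocytes, spanned 1.96 to 3.67 RPKM and then 3.71 to 5.34 RPKM and rose 1.63-fold. Ms4a4d, a membrane protein of the MS4A family, rose 1.60-fold. A further pair was chosen after the values were seen. Ifitm3, which blocks the entry of viruses, had 88.2 to 110 RPKM on the first day and 122 to 152 RPKM on the second. Siglec1, a sialic acid receptor of macrophages, had 2.49 to 3.33 and 3.73 to 4.88 RPKM. Both passed (limma, adjusted p = 0.028 and 0.043) with no overlap.

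Promoters are shown because the ISRE is an element of many interferon-induced genes, and each promoter printed was picked as one that holds its core. The sequences are the 160 bases before the annotated start on the gene's own strand (RefSeq, GRCm38.p6), and capitals mark matches on either strand to the ISRE core, GAAA followed after any 2 bases by GAAA. Matches may overlap, as in Isg15 and Gbp3. The first 2 genes belong to the interferon-induced list and were picked after their values were seen, as was Isg15, a ubiquitin-like protein of the same list. Gbp3, Saa3 and Mmp13 are genes that rose and hold the core.
Ifit1 (chr19:34640729-34640888, + strand): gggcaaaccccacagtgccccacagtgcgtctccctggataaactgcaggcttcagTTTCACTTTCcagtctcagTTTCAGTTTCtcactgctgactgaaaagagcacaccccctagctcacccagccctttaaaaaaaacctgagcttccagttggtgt
Ifit3 (chr19:34583369-34583528, + strand): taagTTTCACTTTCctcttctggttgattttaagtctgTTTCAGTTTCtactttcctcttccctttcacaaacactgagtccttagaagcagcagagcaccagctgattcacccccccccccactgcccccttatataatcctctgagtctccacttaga
Isg15 (chr4:156200819-156200978, - strand): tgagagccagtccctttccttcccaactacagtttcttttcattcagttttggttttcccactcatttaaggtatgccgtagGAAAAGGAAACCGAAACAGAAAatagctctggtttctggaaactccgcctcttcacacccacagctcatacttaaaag
Gbp3 (chr3:142559884-142560043, + strand): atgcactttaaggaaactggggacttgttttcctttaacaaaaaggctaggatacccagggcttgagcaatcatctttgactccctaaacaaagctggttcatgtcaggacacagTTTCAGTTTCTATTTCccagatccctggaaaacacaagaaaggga
Saa3 (chr7:46715677-46715836, - strand): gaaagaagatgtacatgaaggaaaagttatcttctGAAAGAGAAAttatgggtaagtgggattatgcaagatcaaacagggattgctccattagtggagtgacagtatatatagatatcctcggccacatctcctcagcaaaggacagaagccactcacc
Mmp13 (chr9:7272354-7272513, + strand): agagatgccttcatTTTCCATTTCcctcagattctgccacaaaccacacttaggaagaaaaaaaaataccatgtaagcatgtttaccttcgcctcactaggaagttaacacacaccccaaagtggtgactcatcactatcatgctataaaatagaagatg

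In the 250 bases before the start, the ISRE core was present in 7 of the 24 risen genes that had a promoter in the RefSeq table (29.2%; Mmp13, Ifi205, Apol9a, Gm12250, Saa3, Irgm2 and Gbp3). Only 6 of the 14 genes that fell had a promoter there, and 0 of these held the core. It was present in 8 of the 18 tested genes of the interferon-induced list with a promoter (44.4%) and in 3 of the 25 of the glucocorticoid-induced list (12.0%). The share was 2.51% of the 10903 genes tested that had a promoter and 3.04% of all 27025 promoters. The glucocorticoid element, GNACA followed after any 3 bases by TGTNC, was found in 2 of 24 risen genes (Txnip and Serpina3c), in 3 of the 25 of the glucocorticoid-induced list and in 0.381% of all promoters. An NF-kB sequence, GGG followed after any 2 bases by TTTCC, was found in 1 of 24 (Pglyrp1) and in 1.37%. These matches describe letters in a window and were not tested.

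The interferon-induced list held 26 genes, of which 25 were tested. None passed the adjusted test, but 25 of 25 were higher on the second day and 20 had an unadjusted p under 0.05, where 6.22% of all genes tested were higher at that level. The median log2 difference of the list was 0.48, and 0.59 with base quality as a covariate, where 19 members were higher at that level against 3.21% of all genes. The most abundant member was Bst2, tetherin, which holds budding viruses at the cell surface, with 103 to 128 RPKM on the first day and 127 to 177 RPKM on the second (0.31 ± 0.09; limma, adjusted p = 0.20). Irf9 and Stat2, parts of the complex that binds the ISRE, differed by 0.26 ± 0.08 and 0.27 ± 0.07 (limma, adjusted p = 0.23 and 0.20), and Ifi35 by 0.14 ± 0.08. The widest difference in the list was that of Ifit1, which binds viral RNA ends, with 0.526, 1.15, 0.926, 0.503, 0.729 and 1.02 RPKM on the first day and 3.45, 2.08, 1.82, 2.71, 1.13 and 2.45 RPKM on the second. Only the 52 h library lay within the first-day range (1.36 ± 0.26; limma, adjusted p = 0.075).

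The list did not climb evenly. Its median deviation from each gene's mean was -0.34, -0.14, -0.12, -0.57, -0.46 and -0.15 from 12 to 32 h. From 36 to 56 h it was 0.43, 0.33, 0.13, 0.34, -0.09 and 0.33. Neighbouring libraries thus differed widely within a day too, as from 20 to 24 h and around 52 h, and each time is 1 library. Isg15 showed the same dip, with 8.32 RPKM at 36 h, 2.57 RPKM at 52 h and 6.05 RPKM at 56 h.

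**Figure D3:**
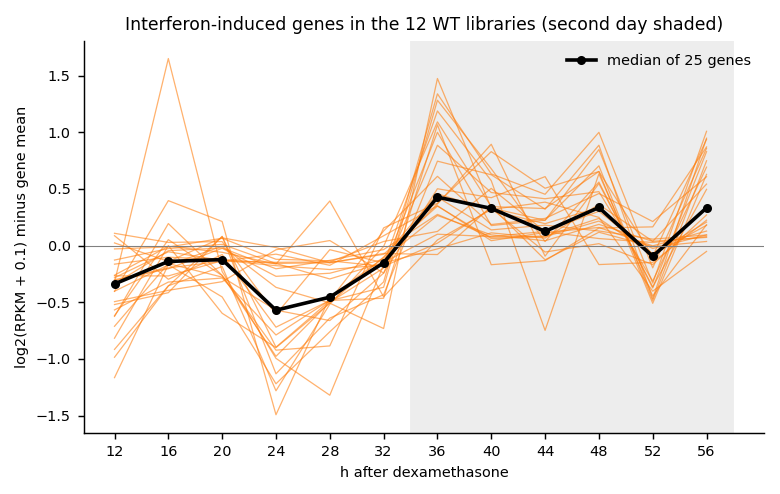
Interferon-induced genes in the 12 WT libraries: hours after dexamethasone on the horizontal axis, log2(RPKM + 0.1) minus each gene's mean on the vertical axis, thin lines for the 25 genes tested, the black line for their median, and shading for the second day. The median lies at or under -0.12 in all first-day libraries and peaks at 0.43 at 36 h, with a low of -0.09 at 52 h.

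Among the genes that fell, several are those of squamous epithelium. Spink12, a serine protease inhibitor of the Kazal type, had 7.56, 4.42, 5.26, 4.33, 5.21 and 3.72 RPKM on the first day and 2.06, 2.84, 1.17, 1.34, 1.27 and 0.639 RPKM on the second. The days did not overlap, and the fall, to 0.298 of the first-day level, was the widest of all calls (-1.74 ± 0.20; limma, adjusted p = 0.020). Pof1b, an actin-binding protein of epithelial junctions, spanned 1.99 to 4.01 RPKM and then 1.20 to 1.97 RPKM (-0.82 ± 0.11). Them5, a mitochondrial acyl-CoA thioesterase, spanned 5.24 to 8.88 RPKM and then 2.85 to 5.11 RPKM. Sp6, a transcription factor of skin, hair and tooth epithelium, fell by 0.56 on the log2 scale. In neither did the days overlap. A list of 27 genes of cornifying epidermis was chosen after these values were seen and includes Pof1b and Them5. It was lower for 25 of the 25 genes tested, with a summed level of 530 to 1210 RPKM on the first day and 362 to 631 RPKM on the second, and with no tested member at 0 in any library. Krt5, a keratin of the basal layer, had 114 to 182 and 125 to 179 RPKM (-0.12 ± 0.11; limma, adjusted p = 0.69). Krt5 belongs to the fixed list of epithelial markers, which leaned the other way. Of its 16 genes tested, 12 were higher and 4 lower, with a median of 0.12 (0.19 in KO). None was called, and 1 was higher and 0 lower at an unadjusted p under 0.05. The part of cornifying cells in the falls was not tested.

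Cd74, the invariant chain of MHC class II, spanned 2.88 to 5.81 RPKM on the first day and 1.78 to 2.61 RPKM on the second, without overlap, and fell to 0.547 of its level (limma, adjusted p = 0.018). Msr1, a macrophage scavenger receptor, spanned 16.7 to 18.8 and then 13.3 to 15.7 RPKM and fell by 0.27 on the log2 scale. Of 17 macrophage and leukocyte markers tested, none passed (6 higher and 1 lower at an unadjusted p under 0.05), 11 were higher and 6 lower. Their median difference was 0.10 and their summed level was 805 to 1051 RPKM on the first day and 773 to 964 RPKM on the second. None of the defining markers Csf1r, C1qa, C1qb and Tyrobp was at 0, and C1qa had 83.5 to 95.9 and 86.3 to 101 RPKM. Lyz2, the lysozyme of macrophages and the most abundant of the list, had 317 to 500 and 255 to 368 RPKM (-0.39 ± 0.08; limma, adjusted p = 0.084).

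The other falls were in genes of growth control, of the extracellular matrix and of excitable cells. Dlk1, a membrane ligand that holds back differentiation of preadipocytes, was the most abundant of them, with 155, 134, 141, 127, 122 and 105 RPKM on the first day and 118, 90.6, 99.4, 94.0, 88.5 and 74.5 RPKM on the second. Only the 32 and 36 h libraries overlapped, and the fall had the smallest adjusted p of the 14 (-0.47 ± 0.04; limma, adjusted p = 0.0054). Nell2, a secreted neural glycoprotein, fell to 0.665 of its level, and Bambi, a decoy receptor for TGF-β and BMP, to 0.825, both with overlapping days. Fbln5, fibulin 5 of elastic fibres, spanned 4.65 to 7.53 and then 3.73 to 5.53 RPKM (-0.35 ± 0.05). Fkbp10, a collagen chaperone, fell by 0.21 and Stc2, a secreted glycoprotein hormone, by 0.27, and the days overlapped for these 3 genes. Hcn4, the pacemaker channel of the sinus node, spanned 2.22 to 3.57 and then 0.882 to 2.31 RPKM and fell (-0.75 ± 0.10). Of the lists of muscle, 9 of 16 striated muscle markers were higher and 7 lower, with a median of 0.02 and none called (1 at an unadjusted p under 0.05).

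The fixed list of matrix and TGF-β genes had 26 members, none called (3 higher and 6 lower at an unadjusted p under 0.05), 11 higher and 15 lower, with a median of -0.07. Its most abundant members were Sparc (0.00 ± 0.09), Col1a2 (-0.09 ± 0.07), Col1a1 (-0.10 ± 0.08) and Dcn (0.15 ± 0.06). Postn, periostin, which is named here after its values were seen, missed the threshold narrowly. It spanned 65.8 to 103 RPKM on the first day and 46.1 to 62.6 RPKM on the second, with no overlap (-0.63 ± 0.10; limma, adjusted p = 0.0503).

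**Figure D4:**
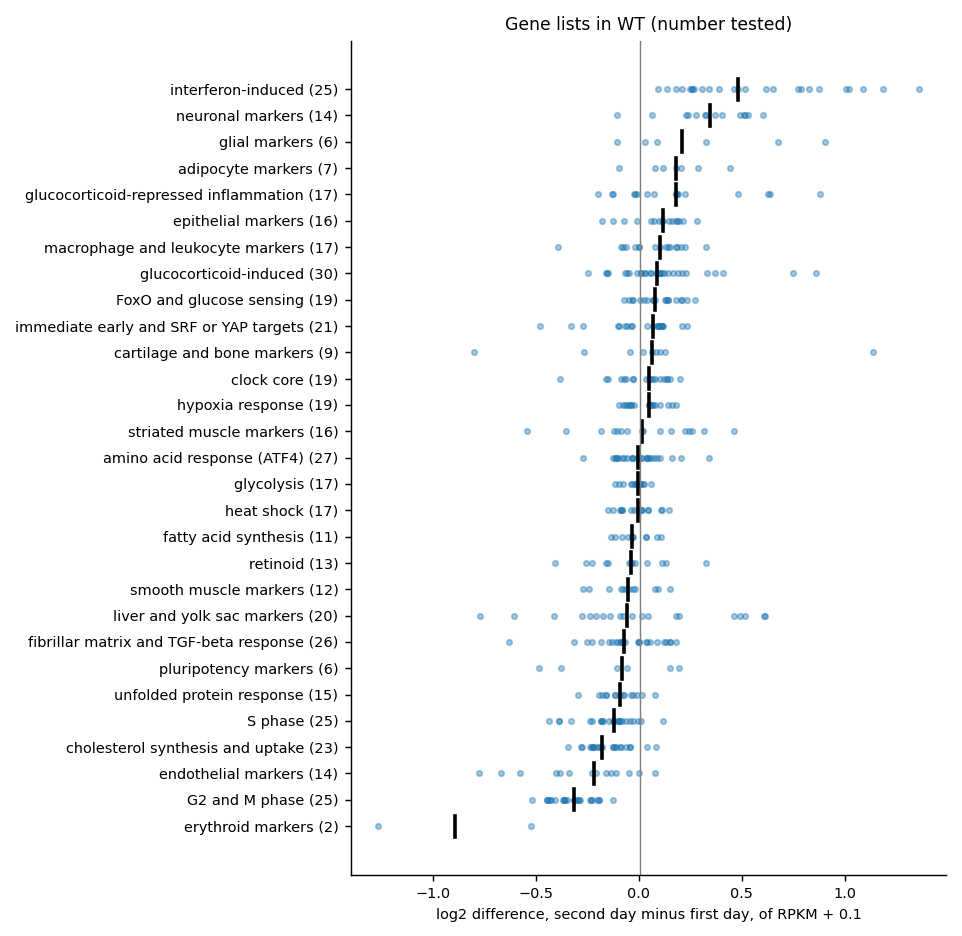
Gene lists in WT: each point is 1 tested gene, the horizontal axis is the log2 difference of RPKM + 0.1 (second minus first day), black ticks are list medians, the grey line is the median of all 14944 genes (0.004), and numbers in brackets are the genes tested. Of the lists drawn with more than 2 genes, the interferon-induced list lies highest (median 0.48) and the G2 and M phase list lowest (-0.32), and lists assembled after their values were seen are not drawn.

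Of 30 glucocorticoid-induced genes, 2 rose (Lcn2 and Saa3) and none fell, where 0.254% of all genes tested rose. At an unadjusted p under 0.05, 8 were higher and 3 lower, against 6.22% and 6.14% of all genes. In all 22 were higher and 8 lower, with a median of 0.09. With base quality as a covariate 4 were higher and 3 lower at that level, with a median of 0.03. Fkbp5, the receptor's own co-chaperone, had 26.9 to 31.7 and 29.0 to 33.0 RPKM (0.11 ± 0.05; limma, adjusted p = 0.45). The anti-inflammatory leucine zipper gene Tsc22d3 differed by 0.10 ± 0.08, and Zbtb16, a zinc finger repressor, by 0.03 ± 0.08. Fkbp5, Tsc22d3 and Zbtb16 were named outside the rule for list members given below and do not stand for the whole list. Of 17 tested genes of inflammation that glucocorticoids repress, Mmp13 rose and none fell. At an unadjusted p under 0.05, 7 were higher and none lower, and the median was 0.18. The chemokine Ccl2 differed by 0.19 ± 0.15. In the list of FoxO and glucose sensing, Txnip, the thioredoxin inhibitor, spanned 129 to 150 RPKM on the first day and 154 to 179 RPKM on the second, without overlap, and rose (0.27 ± 0.04; limma, adjusted p = 0.029). In that list 15 of 19 were higher with a median of 0.08.

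Lists of proliferation and sterol synthesis leaned lower without a call. All 25 G2 and M phase genes were lower (median -0.32), but none had an unadjusted p under 0.05. Ube2c, which loads ubiquitin for the mitotic exit complex, had 2.04 to 6.15 and 1.91 to 5.28 RPKM, with a wide overlap (-0.45 ± 0.25). Of 25 S phase genes, 23 were lower with a median of -0.12, 2 of them at an unadjusted p under 0.05. In KO the medians were -0.33 for G2 and M phase and -0.15 for S phase, with no call. There 7 and 4 genes were lower at an unadjusted p under 0.05, as were 6.49% of all genes. Of 23 genes of cholesterol synthesis and uptake, 21 were lower, 5 had an unadjusted p under 0.05 and the median was -0.18. Hmgcs1, which makes HMG-CoA, differed by -0.11 ± 0.10 and Msmo1, a sterol oxidase, by -0.20 ± 0.11. With base quality as a covariate none of these 23 had such a p. Their median in KO was -0.06, with 2 lower at that level. Endothelial markers were lower for 13 of 14, with a median of -0.22 and no call (4 at an unadjusted p under 0.05). With base quality as a covariate the median was -0.51 and 8 had such a p. In KO the median was -0.20, with 1 that fell and 6 lower at that level. The 4 most abundant were Flt1 (-0.05 ± 0.06), Cdh5 (-0.16 ± 0.25), Eng (-0.21 ± 0.08) and Egfl7 (-0.00 ± 0.14). Neuronal markers were higher for 13 of 14, with a median of 0.35 and no call (2 at an unadjusted p under 0.05). Their median was 0.52 with base quality as a covariate and -0.37, the other direction, in KO (2 lower at an unadjusted p under 0.05). Their summed level ran from 6.88 to 28.0 RPKM on the first day and from 7.13 to 62.3 RPKM on the second. Single libraries thus differed more than the days did.

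The clock genes were compared in the same pairs of libraries 24 h apart, and none of 19 passed (2 higher and 1 lower at an unadjusted p under 0.05). Per1, a period gene that glucocorticoids induce directly, differed by -0.15 ± 0.05 (limma, adjusted p = 0.29), the helix-loop-helix repressor Bhlhe40 by 0.12 ± 0.06, the repressor Nfil3 by 0.14 ± 0.05 and the PAR-domain factor Tef by -0.09 ± 0.07. The range within a day was described with no test, as each phase has 1 library. Per2, the period gene that carries the reporter, had 4.89, 2.69, 1.18, 1.91, 3.62 and 4.27 RPKM on the first day and 3.62, 1.87, 1.79, 2.19, 3.07 and 2.88 RPKM on the second. Its highest library was 4.14 times its lowest on the first day and 2.02 times on the second. For Cry1, a repressor partner of the period proteins, the ratio went from 2.24 to 1.74, for Nr1d1 (Rev-erbα) from 2.09 to 1.63 and for Arntl (Bmal1, the activator) from 1.60 to 1.35. For Dbp, an output activator, it was 2.06 and then 2.22. The ratio was smaller on the second day for 14 of 19 clock genes and for 56.8% of the 11854 genes of at least 1 RPKM. The highest libraries of both days lay within 4 h of the same phase for 12 of 19 clock genes. Tef and Hlf, which are not among the 12, were highest at 12 h and then at 52 h.

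The KO libraries, the only others with these times, covered the same interval in separate samples. The gene-level value of Nr1d1 itself cannot check the genotype, since only targeted exons were removed. It had 3.58 to 7.48 RPKM in WT and 2.48 to 9.74 RPKM in KO. The paper reports raised Bmal1 and Npas2 in KO. In KO the lower class of base quality lay the other way, in 3 of 6 first-day and 1 of 6 second-day libraries. Fitted alone in the same way, KO had 134 called genes (0.897%), 103 that rose and 31 that fell. At an unadjusted p under 0.05 it had 9.03% of genes higher and 6.49% lower. Of the 52 genes called in WT, 52 had the same sign in KO, as had 59.3% of all genes. Of the 52, 45 had an unadjusted p under 0.05 with that sign, as had 12.2% of all genes. Saa3 rose by 1.08 ± 0.10 and Lcn2 by 0.89 ± 0.06 in KO (limma, adjusted p = 0.0027 and 0.0010), Scgb1a1 differed by 1.59 ± 0.34 and Spink12 by -1.28 ± 0.22. Of the interferon-induced list, 11 of 25 rose in KO and 24 had an unadjusted p under 0.05, with a median of 0.57.

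**Figure D5:**
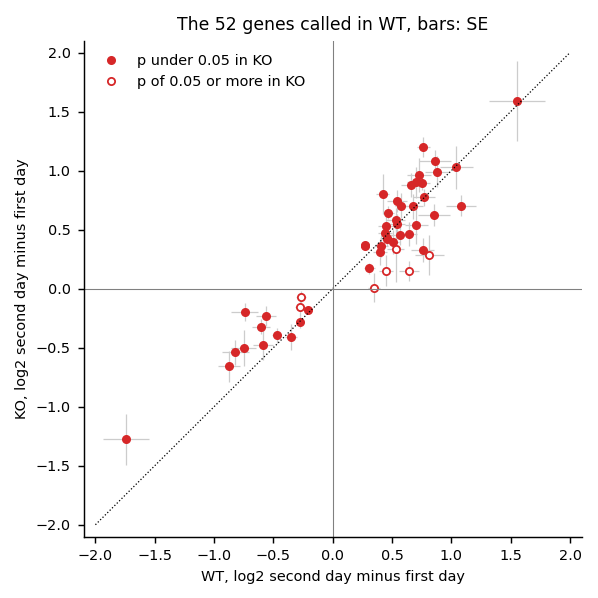
The 52 genes called in WT: log2 difference between the days in WT on the horizontal axis and in KO on the vertical axis, bars for the SE, filled points for an unadjusted p under 0.05 in KO, and the dotted line for equal differences. All points lie in the quadrants of equal sign, from Spink12 (-1.74 and -1.28) to Scgb1a1 (1.55 and 1.59), and 45 are filled.

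No gene passed the test for a difference between WT and KO in its change from day to day (limma, 0 of 14944 at an adjusted p under 0.05, 1038 or 6.95% at an unadjusted p under 0.05, smallest adjusted p = 0.611). With 6 pairs in each genotype this does not show that the changes were equal. Of the 52 genes called in WT, 12 had an unadjusted p under 0.05 for this difference. The 52 were chosen by their WT change, which is part of this difference. Their share thus cannot be set against that of all genes. Cyp7b1 is among the 52. Among the genes with the smallest p were Mfap1a, Atf5, 2500004C02Rik and Cyp7b1 with a larger value in WT, and Esrra, Taf10, Sprr2d, Cyhr1 and Cish with a smaller one. Cyp7b1, an oxysterol hydroxylase, spanned 1.59 to 2.41 and then 2.28 to 3.33 RPKM in WT. It differed between the days by 0.64 ± 0.09 in WT and 0.15 ± 0.08 in KO, a gap of 0.49 ± 0.12. Sprr2d, a protein of the cornified envelope, had -0.28 ± 0.18 and 0.92 ± 0.16. Esrra, an orphan receptor of mitochondrial genes, had -0.18 ± 0.04 and 0.12 ± 0.05. All of these had an adjusted p of 0.71 for the gap.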

How the data were processed

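PolyA-selected RNA was sequenced as 101-base paired-end reads. The submitters' processing notes name bcl2fastq, Trimmomatic 0.36, STAR 2.5.4b, SAMtools, HOMER and GRCm38 (mm10). The authors mapped the reads, kept alignments of mapping quality 10 or more, counted reads on exons and deposited RPKM for 33079 genes, beside each gene's exonic length in bases (another deposited column, used to obtain RPM). The use of strand is not given in the sources used here, so overlapping and antisense genes cannot be told apart, and paralogs such as the p200 and Gbp families may share reads.

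Genes were tested with limma 3.58.1 in R 4.3.3 (trend on the mean level, two-sided) on log2(RPKM + 0.1), a scale that understates folds of low genes, with a block for each of 6 pairs and Benjamini-Hochberg adjustment. Count models were not used, as RPKM are normalized. An exact sign-flip test over 6 pairs cannot go below 0.03125. Genes named for moving in 1 direction in 6 of 6 pairs have this value by that choice. The change between days was compared between WT and KO in 1 fit with blocks per genotype and phase. Both fits were first tested on simulated data that held known changes.

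Genes named are the 15 with the largest rise and up to 15 with the largest fall among those that passed, averaged 1 RPKM or more and moved in 1 direction in 6 of 6 pairs, the 5 with the smallest p in each direction for WT against KO, and members of gene lists (those that passed, or up to 4 of highest level). A few further list members, such as Fkbp5, Tsc22d3 and Zbtb16, are named outside this rule. The libraries compared and the lists were chosen with earlier results of these data known. Alternatives varied the pseudocount, filter, block, scaling, weights, spread, base quality class and pairs. Figures used Python 3.11.15 and matplotlib 3.10.9. Some genes that the rule names are counted in the totals but not reported here.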

Additional observations from a re-analysis of the deposited data

Results flagged for a closer look

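In 60 groups of 6 libraries (30 genes on 2 days), 2 held a library far from the other 5 by Dixon's ratio at the 95% level, and chance alone flags about 1 in 20 groups. On the second day the 56 h library of Ifi204 had 6.029 RPKM, with the next at 5.301 RPKM. The 56 h library of Fbln5 had 3.728 RPKM, with the next at 4.853 RPKM. Both genes differed in the same direction in all 6 pairs, which the rule for naming them required.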

How the results depend on the processing

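Of 580 single values for the named genes, 269 lost the adjusted threshold. None reversed, which the choice of genes that moved in 1 direction in 6 of 6 pairs fixes for most alternatives. The count of 52 genes became 7 with no filter, 78 with a filter at 1 RPKM (fewer genes tested), 11 without a variance trend, 90 after quantile normalization, 111 with voom weights on recovered fragments and 179 with all 24 libraries in the fit, which estimates the spread from more libraries. With base quality as a covariate, or in the 3 pairs of 1 quality class, it was 0. Without the replicate block it was 84 (46 rose and 38 fell), with a 24 h cosine and sine in its place 94, and for a linear trend 241; 32, 39 and 49 of the 52 were among them. Pairing by phase was weak: deviations of paired libraries correlated from -0.074 to 0.29 over 11854 genes, 2 of 6 pairs over 0.1. Leaving out 1 pair gave 0 to 48 genes: 48 without 12 and 36 h, 5 without 16 and 40 h, 12 without 20 and 44 h, 19 without 24 and 48 h, 0 without 28 and 52 h and 9 without 32 and 56 h. The cause of these shifts was not tested beyond this. For the difference between WT and KO the count was 0 in every alternative, with a smallest adjusted p from 0.355 to 0.996. One library per time point limits statements about single times, and levels under 1 RPKM rest on few fragments.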

Other observations

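The groups below were assembled after their values were seen and are given as descriptions with no test. Some hold genes already called in WT, whose direction was thus known: 2 in cornifying epidermis and 1, Cd74, in MHC class II. The complement and acute phase group holds 5 such genes, and the p200 and GTPase group 5. Genes of cornifying epidermis, the outer layer of skin in which keratinocytes harden and die, were lower on the second day for 25 of 25 genes tested, with a median log2 difference of -0.88 in WT, -0.57 with base quality as a covariate, and -0.27 in KO. Krt1 and Krt10, the keratins of suprabasal layers, had 50.9 to 120 and 89.5 to 205 RPKM on the first day and 35.4 to 75.3 and 58.9 to 120 RPKM on the second. Lor, loricrin of the cornified envelope, had 57.1 to 199 and then 36.1 to 84.2 RPKM, a difference of -0.98 in WT and -0.07 in KO. All of these overlapped between the days.

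Genes that guard and present antigens moved in unlike ways. MHC class I and its helpers were higher for 8 of 8 genes, with a median of 0.23 in WT and 0.37 in KO, and B2m, its light chain, had 102 to 118 RPKM on the first day and 117 to 142 RPKM on the second. MHC class II genes were lower for 5 of 5, with a median of -0.28. Complement and acute phase genes were higher for 17 of 19 tested, with a median of 0.40; C3, the hub of the complement cascade, averaged 273 ± 59.6 RPKM (SD, n = 6) and 419 ± 38.6 RPKM. Genes of the p200 family and the interferon-inducible GTPases were higher for 13 of 13, with a median of 0.57 in WT and 0.46 in KO. Mucosal genes of the stomach surface were higher for 5 of 5 tested, and Gkn2, gastrokine 2, spanned 0.529 to 8.55 and then 3.04 to 16.0 RPKM, with a wide overlap.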
